A study of Mus musculus with 23 samples.

Results

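The transcription factors that drive the formation of fat cells were followed across 23 clonal preadipocyte lines. The set holds 9 genes, Pparg, Cebpa, Cebpb, Cebpd, Ebf1, Ebf2, Zfp423, Klf15 and Srebf1, out of 18193 genes with a probe set that carries 1 gene symbol. The genes were chosen by name, and each was represented by its probe set with the highest mean over the 23 lines. All 9 passed the filter on low signals, which 12307 genes passed.

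The lines carry the Immortomouse transgene, a temperature-sensitive viral T antigen behind an interferon-inducible promoter, and all descend from 1 male mouse aged 8 weeks. Stromal vascular cells, the non-fat cells of adipose tissue, were taken from its perigonadal fat (PGF) and its subcutaneous fat (SCF). After 2 passages, 190 ungated cells were sorted singly into wells and expanded with interferon gamma (10 units/mL) at 33 °C, so that each line is 1 clone. No label gives the depot of a single line, so it was read from the PGF or SCF prefix of the clone name; the number after the prefix (1, 2 or 3) is not explained in the sources used here. The submitters' adipocyte type label divides the lines into Type 1 (3 lines, all PGF), Other (7 lines, 3 PGF and 4 SCF), Type 2 (5 lines, 1 PGF and 4 SCF) and Type 3 (8 lines, 4 PGF and 4 SCF). The types were derived by the submitters from clustering of these expression data, so a p-value between types describes the groups and is not independent evidence of them. Each line also has a differentiation score, rated from oil red O staining of lipid after induction. Scores of 2, 3 and 4 occurred, and all 3 Type 1 lines had a score of 2. The sources used here do not state if RNA was taken before or after induction.

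Fat cell formation runs through a cascade of transcription factors. C/EBPβ and C/EBPδ (genes Cebpb and Cebpd) respond early to hormonal inducers and act upstream of PPARγ (Pparg) and C/EBPα (Cebpa), which sustain each other's expression and activate the genes of the fat cell. The early B cell factors (Ebf1 and Ebf2) and the zinc finger protein Zfp423 are associated with commitment to the fat lineage, KLF15 (Klf15) acts during differentiation, and SREBP1 (Srebf1) activates genes of fatty acid synthesis.

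Levels are the deposited log2 signals, and the median of the whole table was 5.13. Since no detection calls were used, a signal below this median is called low rather than absent, and a fold change that starts from it may understate the difference. Array medians lay between 5.09 and 5.16. The actin 3′ minus 5′ difference, a sign of RNA integrity, was 1.58 in Type 1 line 1 and 0.53 to 1.00 in the other lines. Without Type 1 line 1 the counts of factors lower in Type 1, given further on, were unchanged, while the share of all tested genes called was 19.7% against Other, 16.3% against Type 2 and 25.4% against Type 3, beside 28.4%, 25.2% and 34.7% with all lines. Preadipocyte markers had a group mean above the table median for 11 of 12 genes in Type 1, 12 in Other, 10 in Type 2 and 12 in Type 3. Such a mean does not show presence. Among 8 leukocyte markers, 3 (Cd68, Cd14 and Cd3e) had it in each group. So did Epcam and Cldn3 (epithelium), Kdr (endothelium) and Acta1 (skeletal muscle). Of 5 markers of the mature fat cell, Retn alone had a group mean above the table median, in each of the 4 groups, while Adipoq, Lep and Cidec averaged between 2.87 and 3.68. In Type 3, however, 1 of 8 lines exceeded the table median for Adipoq, at 6.48. The mean of this list per line reached 4.82 in Type 3, against 3.96 in Type 1, 4.12 in Other and 4.03 in Type 2. Markers of mesothelium, the cell layer covering visceral fat, stood out in Type 1. All 10 had a mean above the table median there, against 2 of 10 in each other group, and the mean of the list per line ran from 8.62 to 10.59 in Type 1 and from 4.08 to 5.32 in Other, while Type 2 lines had 4.29 to 4.54 and Type 3 lines 4.01 to 4.39. Of the 9 tested, 8 were called higher in Type 1 in each comparison. The exception was Krt19, at 5.49 ± 0.77 in Type 1 and 7.78 ± 0.64 in Type 2, which was called lower against Type 2. The share of all tested genes called higher was 16% against Other, 14.5% against Type 2 and 18.9% against Type 3. A gene was tested where 3 or more lines exceeded the table median. The 3 Type 1 lines alone can meet this, so the count of 8 is not independent of the filter. Of 6 tested smooth muscle markers, 3 were called higher in Type 1 than in Other and in Type 3 (Tagln, Acta2 and Smtn). The list had median differences of 1.91 and 2.01 there, beside 16% and 18.9% of all tested genes called higher. Against Type 2, 1 was called higher and 1 lower (median 0.80), beside 14.5% and 10.7% of all tested genes. Tagln averaged 12.86 ± 0.52 in Type 1, 8.78 ± 2.02 in Other, 10.53 ± 0.80 in Type 2 and 8.23 ± 0.89 in Type 3. The mean of the smooth muscle list per line ran from 7.48 to 7.91 in Type 1 and from 5.85 to 8.00 in Other, while Type 2 lines had 6.80 to 7.47 and Type 3 lines 5.98 to 7.01. The part of either marker list in the Type 1 differences given next was not tested. Each line was grown from 1 sorted cell. In RNA from a whole culture, a smaller share of cells expressing a gene and less RNA per cell cannot be told apart.

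Promoter windows, from 250 bases before to 50 bases after a transcription start, were read from RefSeq (GRCm38.p6) for 7 of the 9 genes, 13 windows in all. Ebf2 and Cebpd are named without a window. Windows of Pparg, Cebpa and Zfp423 are printed because these 3 genes had the highest SD over the lines outside Type 1. For Pparg, with 3 starts, and Zfp423, with 2, the window printed is the only one with a C/EBP match. The second Pparg window, not printed, held a TATA match at -29. Capitals mark matches, on either strand, to the C/EBP core TTGCNNAA, the EBF palindrome (TCCC, any 2 bases, GGGA) or the TATA box TATAAA.
Pparg, the third of its 3 starts (chr6:115421816-115422115, plus strand): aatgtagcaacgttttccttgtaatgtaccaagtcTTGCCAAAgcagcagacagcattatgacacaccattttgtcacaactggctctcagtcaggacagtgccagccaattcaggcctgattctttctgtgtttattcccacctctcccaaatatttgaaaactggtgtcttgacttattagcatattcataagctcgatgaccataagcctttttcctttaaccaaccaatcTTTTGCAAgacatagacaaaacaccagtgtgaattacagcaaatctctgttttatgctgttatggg
Cebpa, 1 start (chr7:35119043-35119342, plus strand): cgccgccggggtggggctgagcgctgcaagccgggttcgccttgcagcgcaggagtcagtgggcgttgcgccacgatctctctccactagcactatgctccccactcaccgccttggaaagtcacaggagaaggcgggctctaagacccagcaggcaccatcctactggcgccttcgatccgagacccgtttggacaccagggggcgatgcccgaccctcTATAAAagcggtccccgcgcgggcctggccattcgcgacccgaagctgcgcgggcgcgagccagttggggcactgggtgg
Zfp423, the first of its 2 starts (chr8:87959546-87959845, minus strand): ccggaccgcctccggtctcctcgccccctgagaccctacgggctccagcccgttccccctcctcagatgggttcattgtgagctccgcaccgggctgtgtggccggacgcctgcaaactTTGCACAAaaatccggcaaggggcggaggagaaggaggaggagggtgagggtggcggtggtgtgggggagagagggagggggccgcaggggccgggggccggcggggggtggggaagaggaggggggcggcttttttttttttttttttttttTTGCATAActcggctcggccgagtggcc

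The Pparg window held 2 C/EBP matches, TTGCCAAA beginning at base -215 from the start and TTTTGCAA at -16, and the Zfp423 window held TTGCACAA at -131 and TTGCATAA at 22. The Cebpa window held TATAAA at -30. Among the 13 windows, 2 had a C/EBP match, 0 an EBF match and 3 a TATA match. Of 32851 mouse windows of the same length, 10.8% had a C/EBP match, 0.904% an EBF match and 13.6% a TATA match. These matches describe letters in a window and are not shown to be binding sites.

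**Figure D1:**
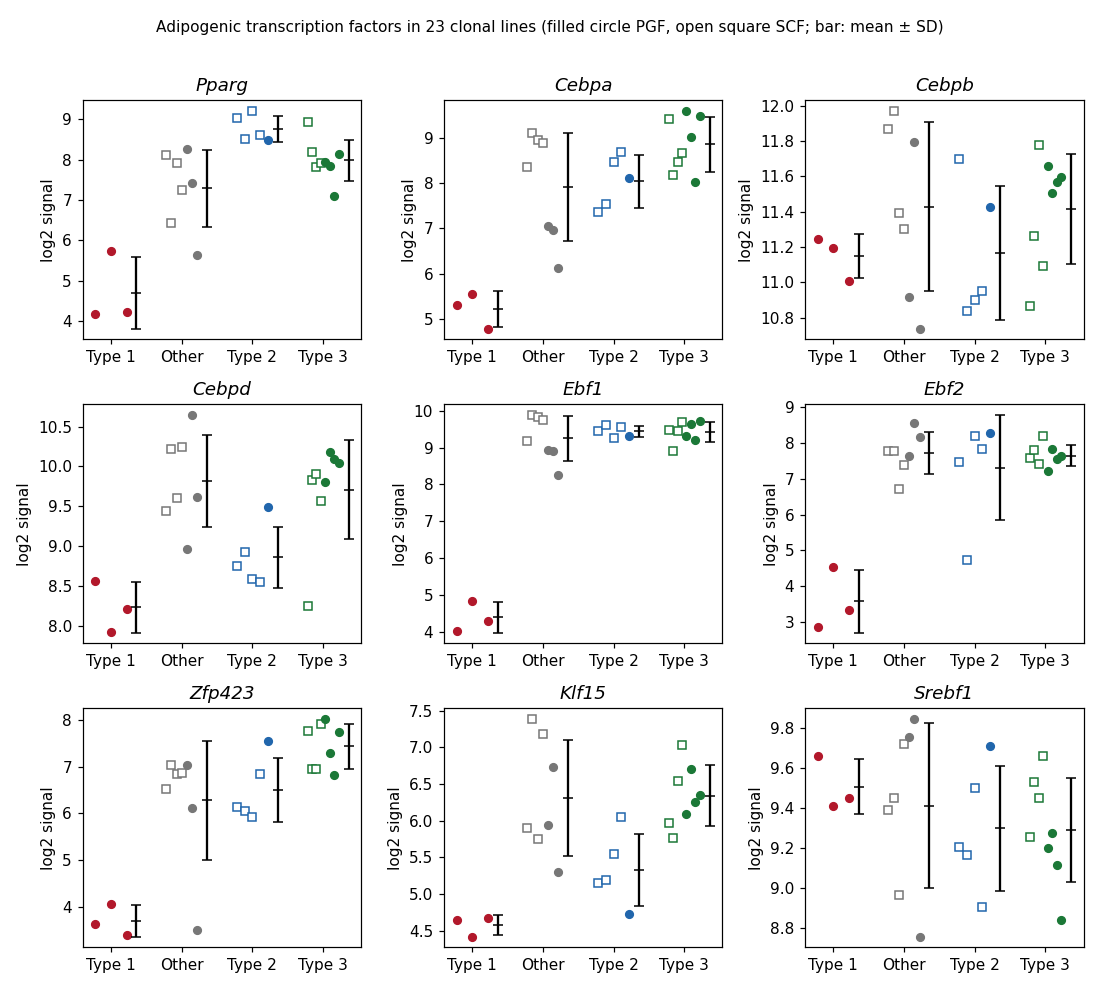
Each panel plots the log2 signal of 1 gene (y axis) in the 23 lines by type label (x axis), with filled circles for PGF lines, open squares for SCF lines and a bar for the mean ± SD of each group. Ebf1 lies at 4.05 to 4.86 in Type 1 and at 8.26 or higher in the 20 other lines, whereas Cebpb and Srebf1 in Type 1 lie inside the range of the other lines.

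The central pair of regulators, Pparg and Cebpa, was lower in Type 1 than in each other group. Pparg, the nuclear receptor required for fat cell formation, had signals of 4.17, 5.73 and 4.22 in the Type 1 lines. In Other it ran from 5.64 through a median of 7.43 to 8.26, in Type 2 it was 9.02, 8.51, 9.20, 8.62 and 8.49, and in Type 3 it ran from 7.09 (median 7.94) to 8.93. Type 1 line 2, at 5.73, lay above the lowest Other line, so Type 1 and Other overlapped, whereas Type 1 lay below every Type 2 and Type 3 line. Against Type 2 the difference was -4.06 ± 0.48 (SE), a 16.7-fold lower signal (limma, Benjamini-Hochberg adjusted p = 1.53e-06 over all genes tested), and it was -2.58 ± 0.46 against Other (adjusted p = 0.000192) and -3.28 ± 0.45 against Type 3 (adjusted p = 7.80e-06).

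Cebpa, the partner of Pparg in maintaining the fat cell program, had signals of 5.31, 5.55 and 4.78 in Type 1. In Other it ran from 6.11 (median 8.37) to 9.11, in Type 2 it was 7.36, 7.54, 8.48, 8.70 and 8.12, and in Type 3 it ran from 8.03 (median 8.84) to 9.59. All 3 Type 1 lines lay below the 20 other lines, the nearest being Other line 7 at 6.11. Cebpa fell in Type 1 against Type 3 by 3.64 ± 0.52 (12.5-fold, limma adjusted p = 1.48e-05), against Type 2 by 2.82 ± 0.57 (adjusted p = 0.00076) and against Other by 2.71 ± 0.53 (adjusted p = 0.000579).

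Of the early C/EBP factors, Cebpb did not pass in any comparison with Type 1. It had 11.25, 11.20 and 11.01 in Type 1, against 10.74 to 11.97 (median 11.39) in Other, 10.84 to 11.70 (median 10.95) in Type 2 and 10.87 to 11.78 (median 11.54) in Type 3. Type 1 sat inside the range of each other group, and the differences were -0.28 ± 0.25 against Other, -0.01 ± 0.26 against Type 2 and -0.26 ± 0.24 against Type 3 (limma adjusted p of 0.438, 0.980 and 0.421). Its other probe set gave differences of -0.31, -0.04 and -0.27 in the same order. With limma array weights, which give arrays with larger residuals less influence, Cebpb passed against Type 3 (-0.40, adjusted p = 0.0382). In that setting 57% of all tested genes were called.

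Cebpd had 8.56, 7.93 and 8.21 in Type 1. In Other it ran from 8.96 (median 9.61) to 10.64, in Type 2 it was 8.75, 8.92, 8.58, 8.55 and 9.49, and in Type 3 it ran from 8.25 (median 9.87) to 10.18. Type 1 lay below every Other line and overlapped the low end of Type 2 and the single low Type 3 line. Cebpd fell in Type 1 against Other by 1.58 ± 0.35 (limma adjusted p = 0.00165) and against Type 3 by 1.47 ± 0.34 (adjusted p = 0.00205), while the difference of -0.63 ± 0.37 against Type 2 did not pass (adjusted p = 0.232). Its other probe set, with a mean of 5.15 near the table median, gave smaller differences. These were -0.62 against Other, -0.54 against Type 3 and -0.37 against Type 2 (limma adjusted p of 0.00468, 0.0087 and 0.111 over all probe sets).

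Ebf1, an early B cell factor that also acts in fat cell precursors, separated the groups by the widest gap of the 9 genes. It had 4.05, 4.86 and 4.31 in Type 1, against 8.26 to 9.87 (median 9.17) in Other, 9.45, 9.62, 9.26, 9.55 and 9.31 in Type 2, and 8.91 to 9.72 (median 9.46) in Type 3. The nearest other line lay 3.40 above the highest Type 1 line. The differences were -4.84 ± 0.27 against Other, -5.03 ± 0.28 against Type 2 and -5.02 ± 0.26 against Type 3, or 28.6-fold, 32.8-fold and 32.4-fold lower (limma adjusted p of 6.26e-12, 9.44e-12 and 2.16e-12). Of its 5 probe sets, 4 gave differences of this kind, from -4.81 to -6.09, and the fifth was below the table median in all 23 lines.

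Ebf2, a paralog of Ebf1 known as a factor of brown and beige fat precursors, had 2.86, 4.54 and 3.34 in Type 1. In Other it ran from 6.71 (median 7.77) to 8.57, in Type 2 it was 7.48, 4.74, 8.20, 7.83 and 8.26, and in Type 3 it ran from 7.21 (median 7.60) to 8.18. All Type 1 lines were below the 20 others, although Type 2 line 2, at 4.74, came within 0.20 of them. Ebf2 fell by 4.14 ± 0.53 against Other, by 3.73 ± 0.56 against Type 2 and by 4.07 ± 0.52 against Type 3 (limma adjusted p of 4.23e-06, 3.93e-05 and 3.63e-06). A second probe set passed in the same 3 comparisons, and the remaining one, with the lowest mean, passed against Other and Type 3 but not against Type 2 (adjusted p = 0.113 over all probe sets).

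Zfp423, a zinc finger protein that marks committed fat cell precursors in mice, had 3.62, 4.06 and 3.40 in Type 1. In Other it ran from 3.49 (median 6.84) to 7.04, in Type 2 it was 6.13, 6.06, 5.91, 6.84 and 7.54, and in Type 3 it ran from 6.82 (median 7.52) to 8.02. Other line 7, at 3.49, lay within the Type 1 range, and the remaining 19 lines had 5.91 or more. The differences were -2.58 ± 0.55 against Other, -2.80 ± 0.58 against Type 2 and -3.74 ± 0.54 against Type 3 (limma adjusted p of 0.00112, 0.000996 and 1.43e-05). With PGF lines alone, where the Other group is 3 lines that include line 7, the difference to Other was -1.86 and did not pass (adjusted p = 0.135).

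Klf15, a Krüppel-like factor induced during differentiation, had 4.65, 4.42 and 4.67 in Type 1. In Other it ran from 5.29 (median 5.94) to 7.39, in Type 2 it was 5.15, 5.19, 5.54, 6.05 and 4.73, and in Type 3 it ran from 5.76 (median 6.31) to 7.03. Type 1 lay below the 20 other lines, by a margin of 0.057 to Type 2 line 5. Klf15 fell by 1.74 ± 0.37 against Other and by 1.76 ± 0.36 against Type 3 (limma adjusted p of 0.00108 and 0.00064). The difference of -0.75 ± 0.39 against Type 2 did not pass (adjusted p = 0.165). With limma array weights it was -0.89 and passed (adjusted p = 0.00614), beside 47.3% of all tested genes.

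Srebf1, the activator of fatty acid synthesis genes, passed in no comparison with Type 1. It had 9.66, 9.41 and 9.45 in Type 1, against 8.76 to 9.85 (median 9.45) in Other, 8.91 to 9.71 (median 9.21) in Type 2 and 8.84 to 9.66 (median 9.27) in Type 3. The differences were 0.10 ± 0.21, 0.21 ± 0.22 and 0.22 ± 0.21 against these groups in turn (limma adjusted p of 0.783, 0.538 and 0.441).

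**Figure D2:**
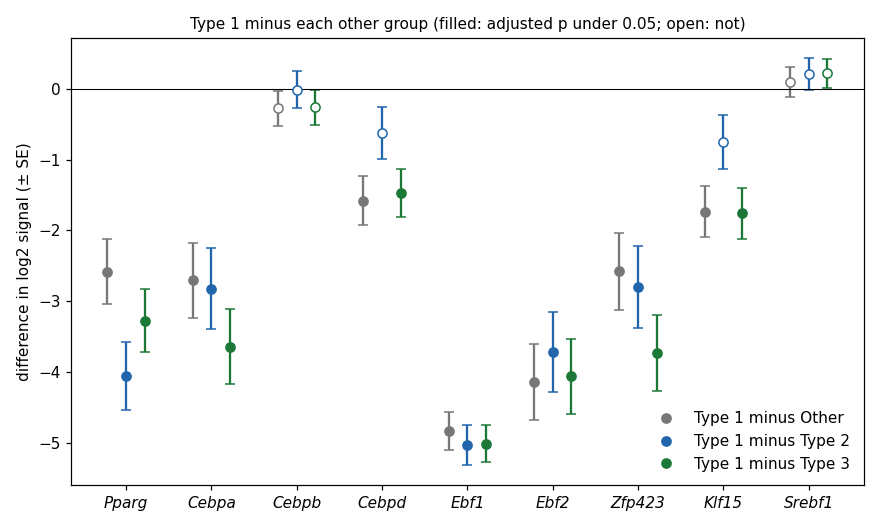
The difference in log2 signal, Type 1 minus each other group (y axis, ± SE), is shown for the 9 genes (x axis), with filled points for an adjusted p under 0.05 and open points for the others. Ebf1 lies between -4.84 and -5.03 in the 3 comparisons, and Cebpb and Srebf1 lie near 0.

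In counts, 7 of the 9 genes were lower in Type 1 than in Other, 5 than in Type 2 and 7 than in Type 3, and 0 were higher. The share of all tested genes called in either direction was 28.4%, 25.2% and 34.7% in these comparisons, and the share called lower was 12.4%, 10.7% and 15.8%. Groups did not overlap for 5 genes between Type 1 and Other, 6 between Type 1 and Type 2 and 6 between Type 1 and Type 3, where 20.1%, 32.1% and 29.0% of all tested genes did not overlap. Against the 20 other lines together, Cebpa, Ebf1, Ebf2 and Klf15 were below every line in all 3 Type 1 lines, as were 5.89% of all tested genes. Because the 3 Type 1 lines are PGF, the comparison was repeated on PGF lines, where 7 genes passed against Type 3 and 6 against Other, as did 23.8% and 13.9% of all tested genes.

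Outside Type 1 the type labels separated the factors less clearly, and 0 of the 9 passed in any of the 3 comparisons among Other, Type 2 and Type 3. The lowest adjusted p among these 27 tests was 0.114, for Klf15 in Type 2 minus Type 3. The share of all tested genes called was 0.00813% for Other minus Type 2, 0.382% for Type 2 minus Type 3 and 0% for Other minus Type 3, where 1083 genes had an unadjusted p under 0.05.

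Type 2 had the highest mean Pparg, at 8.77 ± 0.32 (SD, n = 5), and no Other line reached the lowest Type 2 line (8.26 against 8.49). This absence of overlap, shared by 0.691% of all tested genes, did not come with a passed test (Other minus Type 2, -1.48 ± 0.39, limma adjusted p = 0.132). Pparg in Type 2 minus Type 3 was 0.78 ± 0.38 (adjusted p = 0.284) and in Other minus Type 3 -0.69 ± 0.34 (adjusted p = 0.569). Several other factors had their lower mean in Type 2. Cebpd averaged 9.82 ± 0.57 in Other, 8.86 ± 0.38 in Type 2 and 9.71 ± 0.62 in Type 3, with differences of 0.96 ± 0.30 in Other minus Type 2 and -0.85 ± 0.29 in Type 2 minus Type 3 (limma adjusted p of 0.171 and 0.151). Klf15 averaged 6.31 ± 0.79 in Other, 5.33 ± 0.49 in Type 2 and 6.34 ± 0.42 in Type 3, with differences of 0.98 ± 0.31 and -1.01 ± 0.30 in the same comparisons (adjusted p of 0.175 and 0.114). Neither gene passed in either comparison. Limma array weights, which give arrays with larger residuals less influence, brought Cebpd (-0.97, adjusted p = 0.0265) and Klf15 (-0.78, adjusted p = 0.049) in Type 2 minus Type 3 past the threshold, where 8.43% of all tested genes were then called. Without Other line 7, Klf15 in Other minus Type 2 was 1.15 and passed (adjusted p = 0.0478), and the genes called in that comparison numbered 216 of 12307, or 1.76%, beside 1 with all lines.

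Cebpa and Zfp423 had their highest means in Type 3. Cebpa averaged 7.92 ± 1.19 in Other, 8.04 ± 0.58 in Type 2 and 8.86 ± 0.61 in Type 3, with differences of -0.93 ± 0.40 in Other minus Type 3 and -0.82 ± 0.44 in Type 2 minus Type 3 (limma adjusted p of 0.531 and 0.341). Zfp423 averaged 6.27 ± 1.27 in Other, 6.50 ± 0.69 in Type 2 and 7.43 ± 0.49 in Type 3, with differences of -1.16 ± 0.41 and -0.94 ± 0.45 (adjusted p of 0.505 and 0.286). Without Other line 7 the difference in Other minus Type 3 was -0.69 for Zfp423 and -0.42 for Pparg. Groups overlapped for all 9 factors between Other and Type 3 and between Type 2 and Type 3, where 0.0406% and 3.28% of all tested genes did not overlap.

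Among the 20 lines outside Type 1 the factors nevertheless varied more than most genes. The SD across these lines was 0.99 for Zfp423, 0.93 for Cebpa, 0.86 for Pparg and 0.79 for Ebf2, at percentiles 97.3, 96.7, 96.1 and 95.2 of all tested genes, whose median SD was 0.22. Klf15 (0.71) and Cebpd (0.66) followed at percentiles 93.9 and 92.9, and Ebf1 (0.40), Cebpb (0.39) and Srebf1 (0.32) at 81.8, 81.2 and 73.4. For 2 factors the SD moved by over 1.5 times with 1 line, a repeat chosen after seeing the data. It was 0.64 for Zfp423 without Other line 7 and 0.43 for Ebf2 without Type 2 line 2, and 0.69 or more for Pparg and 0.79 or more for Cebpa without any 1 line. The SD within groups, pooled over all 4 groups with Type 1 included, was of the same order, for example 0.84 for Zfp423 and 0.70 for Pparg. A single line, Other line 7 (a PGF clone with a differentiation score of 2), was the lowest of the 20 for 6 factors, Pparg (5.64), Cebpa (6.11), Cebpb (10.74), Ebf1 (8.26), Zfp423 (3.49) and Srebf1 (8.76), but not for Ebf2 (8.16), Cebpd (9.61) or Klf15 (5.29).

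The depot of origin was compared with the type label in the model, which leaves the estimate to the 20 lines outside Type 1. In this comparison 0 of the 9 factors passed, and 0% of all tested genes did (1034 had an unadjusted p under 0.05). The differences with the smallest p were in Ebf1 and Cebpa. Ebf1 was 8.26 to 9.72 (median 9.26) in 8 PGF lines and 8.91 to 9.87 (median 9.51) in 12 SCF lines, a difference of -0.35 ± 0.17 (limma adjusted p = 0.589). Cebpa was 6.11 to 9.59 (median 8.07) in PGF lines and 7.36 to 9.43 (median 8.58) in SCF lines, a difference of -0.64 ± 0.35 (adjusted p = 0.637). Without Other line 7, a PGF line, the differences were -0.23 for Ebf1 and -0.40 for Cebpa.

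Within the Other group the depots stood apart for Cebpa. The 3 PGF lines had 7.06, 6.96 and 6.11, and the 4 SCF lines had 8.37, 9.11, 8.95 and 8.90. The difference was -2.12 ± 0.40 (limma adjusted p = 0.0318), in a comparison that called 1 of the 9 factors and 0.179% of all tested genes (0.0406% higher and 0.138% lower in PGF). The groups did not overlap, with PGF lower, for 6.26% of all tested genes (3.28% with PGF higher). The call was lost without any 1 of Other lines 2, 3, 4 and 7 or Type 3 line 6 (differences -1.82 to -2.12, adjusted p of 0.0512 to 0.129), with array weights (adjusted p = 0.123), with the mean of probe sets (adjusted p = 0.0541) and with the Other lines fitted alone (adjusted p = 0.151). Ebf1 had the same order, 8.92, 8.90 and 8.26 in PGF against 9.17, 9.87, 9.83 and 9.75 in SCF, with a difference of -0.96 ± 0.23 that did not pass (adjusted p = 0.0886). Without Other line 1 it did (-1.13, adjusted p = 0.0434), beside 0.325% of all tested genes. Zfp423 differed by -1.27 ± 0.54 (adjusted p = 0.300) and by -0.24 without Other line 7.

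Type 3, which holds 4 lines of each depot, gave another order. Cebpa had 9.59, 9.01, 8.03 and 9.49 in PGF lines and 9.43, 8.18, 8.47 and 8.67 in SCF lines, a difference of 0.34 ± 0.37 (limma adjusted p = 0.999), and Ebf1 differed by 0.09 ± 0.21 (adjusted p = 0.999). The depots overlapped for both genes. The depot difference in Type 3 minus that in Other was 2.46 ± 0.54 for Cebpa (adjusted p = 0.181), 1.05 ± 0.31 for Ebf1 (adjusted p = 0.305) and 0.81 ± 0.35 for Cebpb (adjusted p = 0.510). In this test of the difference between groups 0 of 9 factors and 0% of all tested genes passed, with 1096 genes at an unadjusted p under 0.05, so the depot difference of Cebpa is not shown to differ between Other and Type 3.

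**Figure D3:**
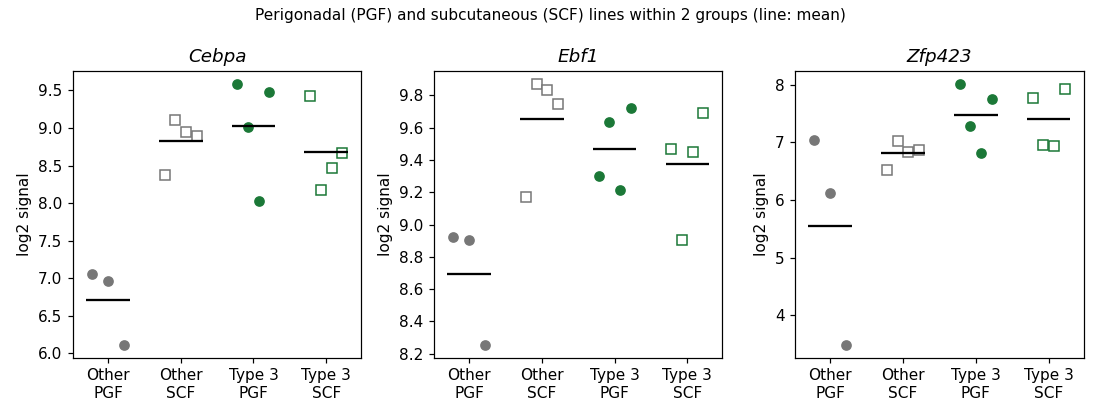
The log2 signal (y axis) of Cebpa, Ebf1 and Zfp423 is plotted for PGF (filled circles) and SCF lines (open squares) of Other and Type 3, 1 point per line, with a horizontal bar at the mean. In Other the 3 PGF lines lie below the 4 SCF lines for Cebpa and Ebf1, and in Type 3 the depots overlap.

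Against the differentiation score 0 of the 9 factors passed, and 0% of all tested genes did (872 had an unadjusted p under 0.05). With the type label in the model, Zfp423 had a slope of 0.46 ± 0.21 per score point (limma adjusted p = 0.679) and Srebf1 of 0.19 ± 0.08 (adjusted p = 0.669). Without Other line 7 the Zfp423 slope was 0.28. Outside Type 1, Zfp423 ran from 3.49 (median 6.83) to 7.03 in 8 lines with a score of 2, 6.12 (median 6.96) to 7.77 in 7 lines with a score of 3 and 6.06 (median 7.54) to 8.02 in 5 lines with a score of 4. Srebf1 had medians of 9.16, 9.39 and 9.66 at these scores. The ranges overlapped between scores for both genes.

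Pparg, the regulator that fat cell formation requires, had a slope of 0.23 ± 0.19 (limma adjusted p = 0.862), which was 0.12 without Other line 7. Its lines with a score of 2 ran from 5.64 (median 7.86) to 9.20, those with a score of 3 from 7.26 (median 8.11) to 8.93 and those with a score of 4 from 7.92 (median 8.26) to 8.51. The highest and the lowest Pparg outside Type 1 were thus both in lines with a score of 2, Type 2 line 3 and Other line 7. Cebpa had medians of 8.47, 8.90 and 8.12 at scores 2, 3 and 4 and Ebf1 of 9.45, 9.47 and 9.31. Type 2 line 2, whose Ebf2 was the lowest outside Type 1 at 4.74, had a score of 4.

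**Figure D4:**
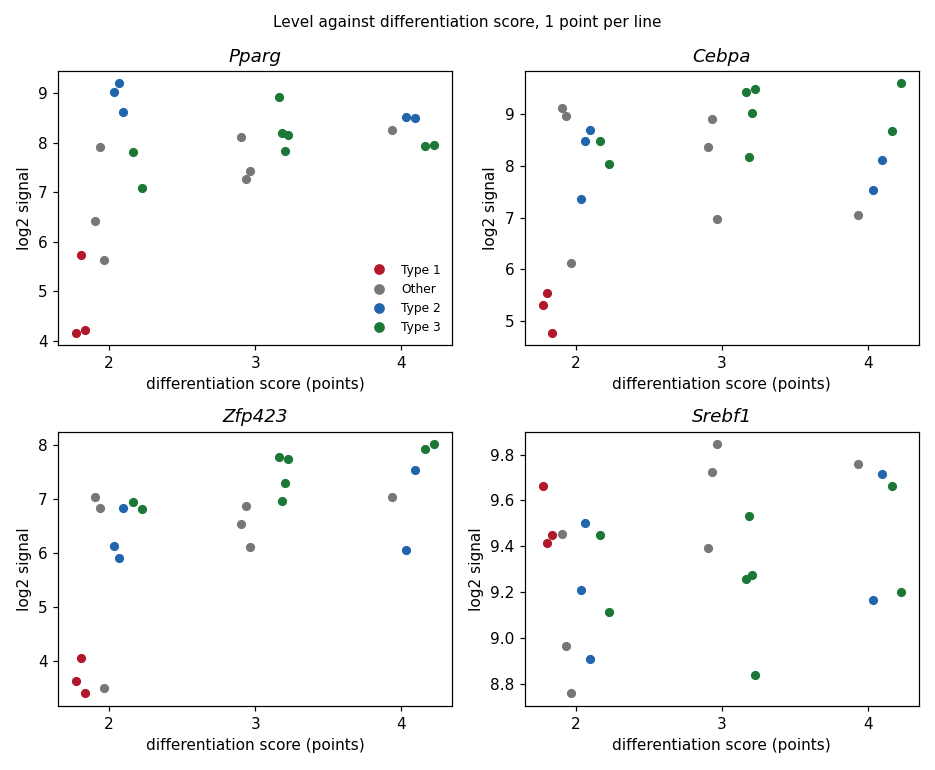
The log2 signal (y axis) of Pparg, Cebpa, Zfp423 and Srebf1 is plotted against the differentiation score in points (x axis), 1 point per line, coloured by type label and spread sideways within a score. At a score of 2 Pparg spans 5.64 to 9.20 outside Type 1, and at a score of 4 it spans 7.92 to 8.51.

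How the factors varied together was described over the 20 lines outside Type 1, since the Type 1 lines form a cluster of their own. Of 36 pairs, 27 correlated positively and 9 negatively, with a median Pearson r of 0.25, and 6 pairs passed a permutation test adjusted over the pairs. The share that would pass among pairs of all tested genes was not computed, so the count is not shown to be particular to these factors. Cebpa went with Zfp423 (r = 0.773, permutation p = 7e-05, adjusted p = 0.00252; Spearman rho = 0.650, p = 0.00242, adjusted p = 0.0218) and with Ebf1 (r = 0.746, permutation p = 0.00024, adjusted p = 0.00432; rho = 0.674, p = 0.00149, adjusted p = 0.0208). Without the 2 lines farthest from the median of Cebpa these r values were 0.594 and 0.513, and after the group means were subtracted they were 0.695 and 0.794. The pair Ebf1 and Zfp423 (r = 0.628, permutation p = 0.00773, adjusted p = 0.0487; rho = 0.364, p = 0.115, adjusted p = 0.317) rested on 2 lines, since r was 0.127 without them (0.668 after the group means were subtracted).

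Pparg ran opposite to Cebpd, its upstream activator (r = -0.666, permutation p = 0.00136, adjusted p = 0.0163; rho = -0.830, p = 2e-05, adjusted p = 0.00072). Here r was -0.874 without the 2 farthest lines and -0.503 after the group means were subtracted, and it was -0.356 in the 7 Other lines and -0.788 in the 8 Type 3 lines. Cebpd in turn went with Cebpb (r = 0.626, permutation p = 0.00364, adjusted p = 0.0328; rho = 0.535, p = 0.0164, adjusted p = 0.0985) and with Klf15 (r = 0.579, permutation p = 0.00811, adjusted p = 0.0487; rho = 0.669, p = 0.00173, adjusted p = 0.0208), with r of 0.668 and 0.690 without 2 lines. After the group means were subtracted r was 0.590 for Cebpd with Cebpb and 0.330 for Cebpd with Klf15, and Cebpd with Klf15 had r of 0.715 in the 7 Other lines and 0.299 in the 8 Type 3 lines. Cebpd and Klf15 both had their lowest mean outside Type 1 in Type 2. Pparg and Cebpa, which are known to sustain each other, gave r = 0.269 (permutation p = 0.251, adjusted p = 0.455; rho = 0.020, p = 0.936, adjusted p = 0.998), and r was -0.014 without 2 lines. After median centring of the arrays, 3 of the 36 pairs passed, so the 6 pairs that passed as deposited did not all hold.

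**Figure D5:**
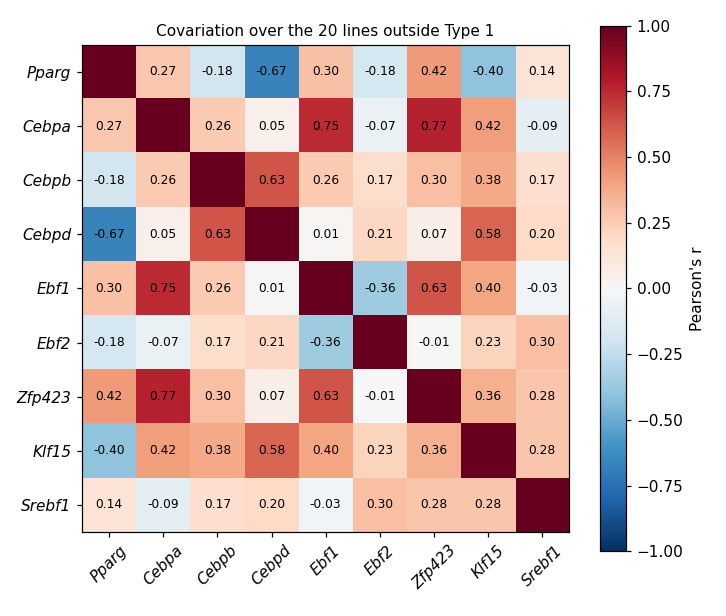
The grid gives Pearson's r between each pair of the 9 factors (both axes) over the 20 lines outside Type 1, red for positive and blue for negative values. Cebpa with Zfp423 (0.77) and with Ebf1 (0.75) are the highest, and Pparg with Cebpd (-0.67) is the lowest.

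The genes whose levels most resembled each factor over these 20 lines were picked from 11775 genes by Pearson's r, as a description without a test. Pparg was most like Sox5 (0.852), a transcription factor of cartilage, followed by Anp32a (0.812) and Lrpprc (0.787). Over all 23 lines these values were 0.788, -0.437 and -0.145, so 2 of the 3 did not hold once Type 1 was included. Cebpa was most like Ankrd44 (0.919, but 0.145 over 23 lines), Mxd4 (0.875) and Prickle2 (0.855), and Zfp423 like Supt3 (0.868), Brms1l (0.830) and Col16a1 (0.824). Cebpd was most like Slc10a6 (0.861), Marchf3 (0.860) and Socs3 (0.855), the last an inhibitor of cytokine signalling, and Cebpb like Fbxl5 (0.845), Cfap69 (0.830) and Osmr (0.820), the last the oncostatin M receptor. Ebf1 was most like Inhbb (0.846), Dcaf17 (0.843) and Nfat5 (0.818), and Ebf2 like the homeobox genes Hoxa9 (0.794) and Hoxa10 (0.763) and Saraf (0.728). Over 23 lines the sign turned for Dcaf17 (-0.392) and Saraf (-0.385). Klf15 was most like Crebrf (0.909), Ctdsp2 (0.875) and Epg5 (0.871, but 0.325 over 23 lines), and Srebf1 like Il6ra (0.828), Pld2 (0.807) and Ppp1r13b (0.801). The genes named here without a value over 23 lines had r of 0.506 or more there.

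The wider network was read from lists of other regulators and of target genes. Over all tested genes, 16% were called higher and 12.4% lower in Type 1 than in Other, 14.5% and 10.7% against Type 2, and 18.9% and 15.8% against Type 3, and the counts of each list stand beside these shares. Of 27 tested positive regulators of fat cell formation, 5 were higher and 10 lower in Type 1 than in Other, 5 and 6 against Type 2, and 4 and 10 against Type 3. The median difference of the list was -0.29, -0.03 and -0.24 in turn, beside 0.01 over all genes tested in each comparison. Ebf3, another early B cell factor, averaged 3.92 ± 0.32 in Type 1 and 6.93 ± 1.69 in Type 3, and Rxra, the DNA-binding partner of PPARγ, averaged 6.68 ± 0.32 in Type 1 and 7.85 ± 0.27 in Other. Both fell against each other group, for example Ebf3 by 3.02 ± 0.75 against Type 3 (limma adjusted p = 0.00336) and Rxra by 1.16 ± 0.18 against Other (adjusted p = 3.24e-05). Ppargc1b, a coactivator of mitochondrial genes, moved the other way, at 8.58 ± 0.08 in Type 1 and 5.66 ± 0.27 in Type 3 (2.92 ± 0.18, limma adjusted p = 4.35e-11). Foxo1 and Klf9, counted here only because they stand in the list, were also higher in Type 1 against each group. Whether a listed gene promotes fat cell formation in these lines was not tested.

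Negative regulators fell as well as rose. Of 23 tested, 5 were higher and 8 lower in Type 1 than in Other, 4 and 6 against Type 2, and 4 and 9 against Type 3, with median differences of -0.22, -0.16 and -0.33. Sox9, a factor of cartilage cells that holds back Cebpb and Cebpd, averaged 4.65 ± 0.05 in Type 1 and 7.77 ± 0.43 in Type 3 (-3.12 ± 0.39, limma adjusted p = 2.40e-06), and Twist2 averaged 6.35 ± 1.27 and 8.86 ± 0.36 (-2.52 ± 0.38, adjusted p = 2.87e-05). Hes1, a target of Notch signalling, and Wwtr1, the Hippo pathway coactivator TAZ that inhibits PPARγ, were higher in Type 1 in all 3 comparisons, for example by 1.44 ± 0.29 and 0.95 ± 0.19 against Type 3.

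Of 16 tested targets of PPARγ and C/EBP factors, 2 were higher and 4 lower in Type 1 than in Other, 2 and 5 against Type 2, and 3 and 5 against Type 3. In either direction that is 37.5%, 43.8% and 50% of the list, beside 28.4%, 25.2% and 34.7% of all tested genes, and the median differences were -0.04, -0.17 and -0.05. Fabp4, the fatty acid binding protein and a direct PPARγ target, averaged 3.66 ± 0.69 in Type 1, 6.71 ± 1.42 in Other, 9.07 ± 1.31 in Type 2 and 7.64 ± 1.18 in Type 3. It fell in Type 1 by 3.05 ± 0.81, 5.41 ± 0.86 and 3.98 ± 0.80 against these groups in turn (limma adjusted p of 0.00713, 6.73e-05 and 0.000529). Fabp5 and Pdk4 also fell in all 3 comparisons, whereas Pnpla2, the main triglyceride lipase, was higher in Type 1, at 7.71 ± 0.26, than in Type 3, at 6.67 ± 0.33 (1.04 ± 0.20, adjusted p = 0.000443). Of 16 SREBP1 targets, 1 was higher and 0 lower in Type 1 than in Other, 3 and 1 against Type 2, and 3 and 3 against Type 3, or 6.25%, 25% and 37.5% of the list. Mid1ip1, a regulator of acetyl-CoA carboxylase, was the one higher in all 3, at 10.75 ± 0.20 in Type 1 and 8.69 ± 0.31 in Type 3 (2.06 ± 0.18, adjusted p = 1.58e-08).

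Of 12 tested preadipocyte markers, 2 were higher and 2 lower in Type 1 than in Other, 3 and 1 against Type 2, and 1 and 2 against Type 3. These are 33.3%, 33.3% and 25% of the list, near the shares over all tested genes, and the median difference was 0.36, 0.36 and 0.14. Cd55, a marker of early precursors, was called higher against Other and Type 3, at 8.62 ± 1.63 in Type 1, 5.65 ± 1.82 in Other and 5.95 ± 1.47 in Type 3 (2.97 ± 1.02 and 2.67 ± 1.00, limma adjusted p of 0.0331 and 0.0426). Cd34, a stem and progenitor cell surface protein, averaged 9.51 ± 0.63 in Type 1 and 5.09 ± 1.43 in Type 2 (4.42 ± 1.31, adjusted p = 0.0157), and Icam1 and Col3a1 were also called higher against Type 2. Dpp4 was called higher against Other by 0.42 ± 0.14, and Pdgfra lower against Other and Type 3. The platelet-derived growth factor receptor gene Pdgfrb fell against each group, at 8.93 ± 0.16 in Type 1 and 11.44 ± 0.44 in Type 3 (-2.51 ± 0.25, limma adjusted p = 7.88e-08). In the comparisons among Other, Type 2 and Type 3, between depots and along the score, 0 genes of these 5 lists passed. In the comparisons with Type 1, PGF lines alone gave 24 called genes of the 94 tested in the 5 lists against Type 3 and 23 against Other (23.8% and 13.9% of all tested genes), where all lines gave 44 and 39.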

How the data were processed

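Each of the 23 lines was measured on 1 Affymetrix-type mouse array from 250 ng of total RNA. The deposited values are log2 signals; the scale was read from their range, 2.03 to 14.46, since no header states it. MAS5 is named in the submitters' processing notes, and the sources used here give neither its version nor its role or scaling. Values were used as the authors deposited them. Of 45101 probe sets, 64 were controls, and among the rest 34945 carried 1 gene symbol in the platform annotation, 932 several and 9160 none; 34741 were matched by Entrez ID to RefSeq (GRCm38.p6). A gene took its probe set with the highest mean, and a gene was tested where 3 or more lines exceeded the table median.

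Groups were compared with limma 3.58.1 in R 4.3.3 over all 23 lines, with Benjamini-Hochberg adjustment over the 12307 genes and a threshold of 0.05. The type label was a term in the depot and score fits. Correlations used 100000 permutations in Python 3.11.15 with numpy 2.4.6, scipy 1.17.1 and pandas 2.3.3, and plots used matplotlib 3.10.9. The members and the gene lists were chosen with earlier results of these data known. All 9 factors were named, with up to 4 genes a direction from each pathway list by size among those that passed and 3 like genes per factor; the text gives some of the list genes so named. Lines are numbered in deposition order, and all come from 1 mouse, so that p-values reflect the variation of clones. The number of arrays limits the precision. Depot and the number used as a block come from the clone names. Alternatives changed the normalization, filter, probe set rule, array weights, model terms and lines. Scripts were tested on simulated data.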

Additional observations from a re-analysis of the deposited data

Results flagged for a closer look

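Of 27 combinations of a factor and a group of 5 to 8 lines, 3 held a line far from the rest by Dixon's test, which chance gives in about 1 of 20 groups. Cebpd was 8.25 in Type 3 line 1, with the nearest Type 3 line at 9.56, a gap of 0.680 of the group's range. Ebf2 was 4.74 in Type 2 line 2, with the nearest Type 2 line at 7.48 (0.777 of the range). Zfp423 was 3.49 in Other line 7, with the nearest Other line at 6.12 (0.740 of the range).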

How the results depend on the processing

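The counts of factors lower in Type 1 were 5 of 9 against Type 2, 7 against Type 3 and 7 against Other in each of the 23 refits without 1 line. With PGF lines alone, 6 were lower than in Other, beside 13.9% of all tested genes called in either direction. Array weights gave 6 against Type 2 and 8 against Type 3, beside 47.3% and 57% of all tested genes. The factor gained was Klf15 against Type 2 and Cebpb against Type 3. Counts among Other, Type 2 and Type 3, between depots over all groups, along the score and for the difference between depot effects stayed at 0 except in 2 settings. Type 2 minus Type 3 gave 2 with array weights, whose estimation stopped before its tolerance in 4 fits, and Other minus Type 2 gave 0 to 1 over the refits without 1 line. Of 36 correlated pairs, 6 passed as deposited, 5 with the mean of probe sets and 3 with arrays centred on their medians. Some directions turned. Cebpb in Type 1 minus Type 2 was 0.022 with the clone-name number as a block and lay between -0.094 and 0.121 without 1 line. In Type 1 minus Other, Cebpb was 0.000 with PGF lines alone and Srebf1 lay between -0.014 and 0.167 without 1 line. PGF minus SCF fitted on Type 3 lines alone was 0.342 for Cebpa and 0.091 for Ebf1, opposite to the overall value. Within Type 3, Ebf1 was -0.020 with the mean of probe sets and -0.061 with the number block, where Cebpa was -0.118, and lay between -0.066 and 0.195 without 1 line. The cause was not tested in any of these. Over all genes, calls in Type 1 minus Type 2, Type 3 and Other numbered 3099, 4274 and 3495. With array weights they were 5818, 7013 and 5460 and with all probe sets tested 5148, 7168 and 5798, while PGF lines alone gave 1706 against Other and leaving out Type 1 line 1 gave 2004 against Type 2. Calls in Type 2 minus Type 3 (47) ranged from 0 without Type 2 line 1 to 1037 with array weights, and those in Other minus Type 2 (1) from 0 without Type 2 line 1 to 104 with array weights and 216 without Other line 7. No paired analysis was possible because replicate numbers only name lines in deposition order. With 3 Type 1 lines and no detection calls, differences that start below the table median are imprecise.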
